A study of Mus musculus with 12 samples.

Results

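The NF-kB subunits and the IkB proteins that bind them were followed in mouse dendritic cells (DC) over 24 hours of exposure to poly(I:C), a laboratory-made mimic of the double-stranded RNA of viruses. The family was taken as a list of 10 genes, the subunits Nfkb1, Nfkb2, Rel, Rela and Relb, the IkB proteins Nfkbia, Nfkbib and Nfkbie, and the nuclear IkB proteins Nfkbiz and Bcl3. Members were the probe sets whose array annotation names exactly 1 gene, that gene being on the list. This gave 18 probe sets for 9 of the 10 genes, out of 34945 probe sets naming 1 gene (18193 genes). Nfkb1, which encodes p105 and p50, has no probe set named for it alone in the annotation used and was not analysed here. The 9 measured genes had 1 probe set each for Rel, Rela, Relb and Bcl3, 2 each for Nfkb2, Nfkbib and Nfkbie, 3 for Nfkbiz and 5 for Nfkbia.

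Bone marrow of C57BL/6 mice was cultured for 6 days with GM-CSF at 10 ng/ml, and the resulting bone marrow-derived DC (BMDC) then received 2.5 ug/ml of poly(I:C) and were sampled before it and 1, 3, 6, 12 and 24 h later. The whole course was run in 2 experiments, so each time had 2 arrays, 12 in all, and the study's methods take the cells of each experiment from 1 mouse and select them on CD11c. The labels give the age of the mice as 3 to 4 months in one field and 8 to 10 weeks in another, and the study's methods name higher concentrations of GM-CSF and poly(I:C) than the labels do. No array held cells kept untreated to a later time, so a difference from 0 h holds poly(I:C) and time in culture together, and these cannot be told apart.

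NF-kB is a family of dimeric transcription factors built from Rel proteins. IkB proteins hold the dimers in the cytoplasm until the IKK complex marks them for destruction, after which the dimers enter the nucleus and bind kB sites. Several IkB and Rel genes carry kB sites themselves, which makes parts of the system feed back on their own transcription. In DC the receptor TLR3 and the cytosolic sensors of double-stranded RNA lead to this pathway, and NF-kB drives cytokine genes and maturation.

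The kB site is the sequence through which the family acts, so the promoters were read for it. RefSeq windows on build GRCm38.p6, running from 250 bases before an annotated transcript start to 50 after it, were at hand for 7 of the 9 measured genes (Relb and Nfkbiz had none). The 10-letter kB consensus, searched on both strands, matched in windows of 5 of these 7 genes, namely Nfkb2, Rel, Nfkbia, Nfkbie and Bcl3. It matched in 4.51% of all 32851 windows and in 5.14% of 27025 genes. A second pattern, GGGNNNTTCC, which overlaps the first, matched in 4 of the 7 genes against 6.31% of all genes. The stretches around 5 matches are shown 5′ to 3′ on the strand of the gene with the matched bases in capitals, followed by the bases upstream of Nfkbib, where these letters were not found.
Nfkbia: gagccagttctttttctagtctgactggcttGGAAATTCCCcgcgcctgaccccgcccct
Rel: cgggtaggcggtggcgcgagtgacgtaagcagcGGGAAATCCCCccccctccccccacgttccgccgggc
Nfkbie: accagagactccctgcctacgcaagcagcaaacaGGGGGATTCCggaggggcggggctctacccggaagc
Nfkb2: gtcacGGGAATTCCCCccctcggggggccg
Bcl3: cggcggcagGGGAAGTCCCgctgcccggcg
Nfkbib: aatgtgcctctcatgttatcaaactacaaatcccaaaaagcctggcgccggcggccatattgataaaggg

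These stretches lie at chr12:55492648-55492707 on the minus strand for Nfkbia, chr11:23771025-23771094 on the minus strand for Rel, and chr17:45555560-45555629 on the plus strand for Nfkbie. Those of the other three are at chr19:46304693-46304722 on the plus strand for Nfkb2, chr7:19822733-19822762 on the minus strand for Bcl3, and chr7:28766645-28766714 on the minus strand for Nfkbib. Counted to its first base, the match began 29 bases before the start of Nfkbia, 92 before Rel and 106 before Nfkbie. In Bcl3 it began 2 bases after the start, inside the transcript. Nfkb2 had matches in the windows of 3 annotated starts, and the one printed began 39 bases before its start. In Rel and Nfkb2 a second match, shifted by 1 base, overlaps the first and is included in the capitals. Rela had no match either. A match is a run of letters in a window, and binding was not measured here.

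**Figure D1:**
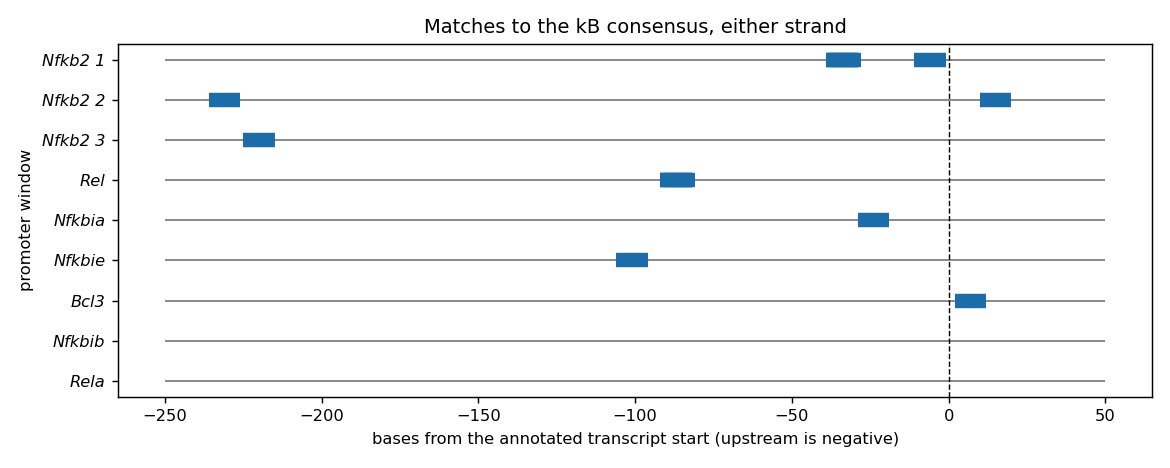
Positions of kB consensus matches (blue bars) in the RefSeq promoter windows of 7 genes, with bases from the annotated start on the x axis and 1 line per window. Matches lie within 106 bases before or 2 after the start in Rel, Nfkbia, Nfkbie and Bcl3, while the windows of Nfkbib and Rela have none.

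Expression was measured as the MAS5.0 signal of each probe set, a background-corrected brightness on a linear scale. The median signal per array ran from 70.9 to 91.4. Of the 12 listed DC markers, Itgax (16176 to 24684), Cd74 (23216 to 34854) and H2-Aa (16474 to 35908) were high on every array. Flt3, also listed, was at 9.32 to 89.9 and below the filter described next. Macrophage genes were also high (Csf1r 22071 to 32347, Lyz2 27440 to 48952), and 11 of 12 DC and 6 of 6 macrophage markers passed the filter, against 1 of 5 for B cells and 1 of 5 for T cells. The summed signal of the DC markers was 130583 and 108082 at 0 h in experiments 1 and 2 and 174081 and 167911 at 12 h, and that of the macrophage markers was 65852 and 70216 at 0 h and 96748 and 98286 at 12 h. The summed signal of 4 NK cell markers, 2 of which passed, went from 265 and 205 at 0 h to 1821 and 1439 at 12 h, which was Klrk1 (107 and 50.2 to 1633 and 1234), while Ncr1, Gzma and Prf1 stayed at 13.2 to 143 on all arrays. Of 8 neutrophil markers 3 passed, with Mmp8 at 16988 to 34531 while the defining genes Elane, Mpo and Camp were below the filter. Of 5 erythroid and platelet markers 3 passed, among them Pf4 at 18062 to 33135 and Itga2b at 183 to 321. The summed signal of the 5 was 44985 at 12 h in experiment 2, more than Pf4 and Itga2b reached, so the other passing marker was also bright. The part of these cells and genes in the results below was not tested. In a bulk culture, fewer cells of a type and less RNA per cell cannot be told apart.

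Tests were run with limma on log2(signal + 16), with time and experiment in the model, over the 22519 probe sets whose mean signal reached the median of all probe sets. A probe set was called where the Benjamini-Hochberg adjusted p over all of them was under 0.05. Fold changes below are on this log2 scale and are given with their standard error (SE), and linear folds divide an array's signal by that of its own experiment's 0 h array. Of the 18 member probe sets, 17 passed the filter. The signal of the other, Nfkbib probe set 1446718_at, lay between 57.3 and 65 in the first experiment and between 7.09 and 52.9 in the second, with ranges that overlapped 0 h at every time, and it was not tested.

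The family was mostly higher at 12 h. At that time 13 of 17 member probe sets, belonging to 7 of the 9 genes, were called higher than at 0 h and 0 lower, with a median log2 fold change of 0.99. Of all probe sets tested, 9.32% were called higher and 18.7% lower at 12 h, and their median was -0.23. The other 4 member probe sets, those of Rela and Relb and 1 each of Nfkb2 and Nfkbia, had log2 fold changes of 0.48 to 0.98. Limma gave 16 of 17 an unadjusted p under 0.05, beside 8941 of all 22519 probe sets tested. Leaving out the 12 h array of experiment 1 left 5 calls and leaving out either 0 h array left 7.

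At the other times fewer members were called. At 1 h, 3 of 17 were higher and 0 lower (12 with an unadjusted p under 0.05), all 3 belonging to Nfkbiz, where 0.0533% of all probe sets were called higher and 0% lower. The study's methods describe the 1 h arrays as poorly correlated between the experiments, over its own selected genes, and leave that time out of its consistency filter and clustering. At 3 h, 2 were higher and 0 lower (8 with an unadjusted p under 0.05), against 1.01% and 0.0444% of all probe sets. At 6 h, 4 were higher and 0 lower (13 with an unadjusted p under 0.05), against 3.62% and 1.95%. At 24 h, 2 were higher, 1 lower and 14 not called (3 with an unadjusted p under 0.05), against 9.23% and 17.5%. The member median was 0.74, 0.56, 0.68 and 0.03 at 1, 3, 6 and 24 h, beside medians of -0.02, -0.06, -0.16 and -0.19 over all probe sets tested. Over all 22519 tested, limma gave an unadjusted p under 0.05 to 439, 1660, 4689 and 8720 at 1, 3, 6 and 24 h.

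Between neighbouring times the calls were few. Limma called 0 members higher and 2 lower at 3 h against 1 h (6 with an unadjusted p under 0.05), beside 0.861% and 0.0666% of all probe sets. It called none in either direction at 6 h against 3 h (1 with an unadjusted p under 0.05), beside 0.528% and 0.0622%, and none at 12 h against 6 h (5 with an unadjusted p under 0.05), beside 0.608% and 1.13%. At 24 h against 12 h it called 0 higher and 5 lower (11 with an unadjusted p under 0.05), beside 1.87% and 2.25% of all probe sets. Those 5 were the probe sets of Nfkbie and Nfkbiz. Over all 22519 tested, limma gave an unadjusted p under 0.05 to 1653, 2213, 3790 and 4916 in these comparisons, in the order given.

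Ranges were also compared, as a description with no test. Of the 17 tested member probe sets, 12 had both 1 h arrays above both 0 h arrays and 0 had both below, where this held for 8.74% and 12.2% of all tested probe sets. At 3 h 12 lay above and 0 below, beside 13.1% and 19.9% of all, and at 6 h 13 lay above and 0 below, beside 15% and 31.4%. At 12 h 11 lay above and 0 below, beside 18.6% and 37.2%. At 24 h 2 lay above (Nfkbib and Bcl3) and 2 below (Nfkbiz 1417483_at and Nfkbie 1458299_s_at), beside 18.5% and 32.3%, so that with 2 arrays a time such a separation was common among all probe sets.

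**Figure D2:**
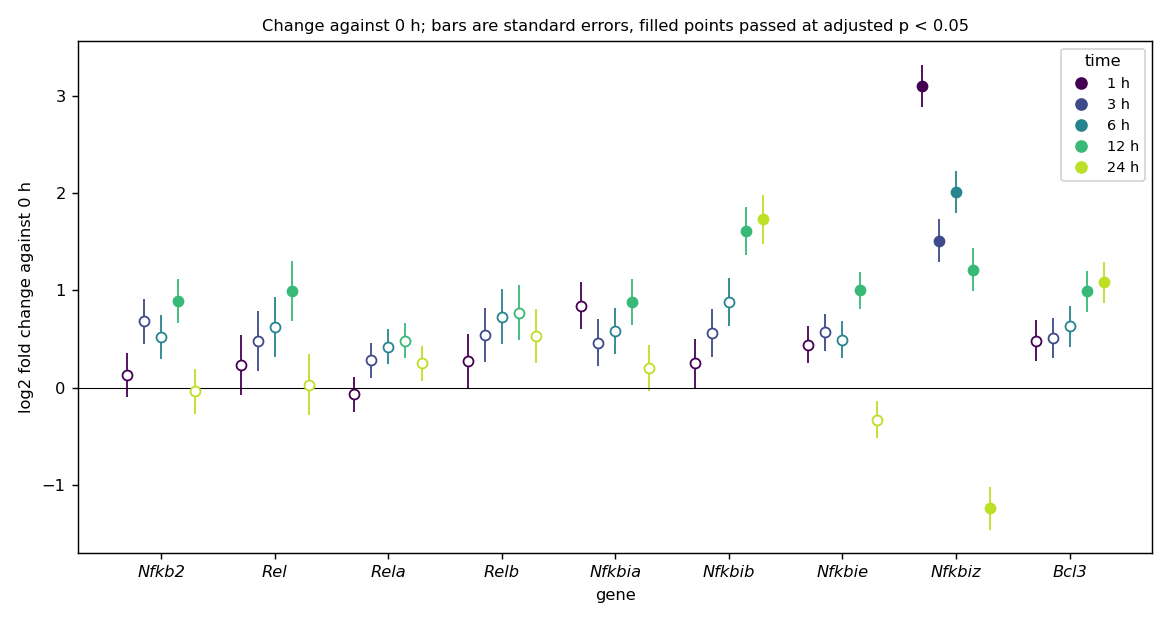
Log2 fold change against 0 h (y axis) of the representative probe set of each of 9 genes (x axis) at 5 times, from the limma fit over 12 arrays, with standard errors as bars and filled points where the adjusted p was under 0.05. Filled points gather at 12 h in 7 genes, while Nfkbiz starts at 3.10 at 1 h and ends at -1.24 at 24 h.

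Among the Rel subunits, Rela, Relb and Rel carry a transactivation domain, and Nfkb2 encodes p100, which is processed to p52. Rela, the main activating partner of the classical dimer, had a signal of 2675, 2596, 3551, 3953, 4226 and 4030 over the 6 times, from 0 h to 24 h, in experiment 1. In experiment 2 it was 2483, 2328, 2778, 3021, 3060 and 2322. Both arrays of 3, 6 and 12 h lay above both 0 h arrays, by at most 1.58-fold, and at 24 h the experiments parted, at 1.51-fold and 0.935-fold of 0 h. The log2 fold change was 0.42 (SE 0.18, adjusted p = 0.227) at 6 h and 0.48 (SE 0.18, adjusted p = 0.0791) at 12 h. Rela thus did not pass at any time in the fit of all 12 arrays. In the limma fit without both 24 h arrays the same 0.42 and 0.48 had adjusted p of 0.0472 and 0.0122.

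Rel, the c-Rel subunit prominent in immune cells, had signals of 431, 509, 644, 878, 1154 and 360 over the 6 times in experiment 1. In experiment 2 they were 249, 294, 333, 295, 383 and 313. The 12 h array was the highest of both courses, yet the ranges overlapped 0 h at every time because experiment 2 stayed below the 0 h array of experiment 1. Rel rose at 12 h by a log2 fold change of 0.99 (SE 0.31, adjusted p = 0.0395), being 2.68-fold of 0 h in experiment 1 and 1.54-fold in experiment 2. This call was lost in 10 of 22 alternative fits, including those without either array of 0, 1 or 3 h or without the 12 h array of experiment 1, over which the adjusted p ran from 0.0071 to 0.349. At 24 h it stood at 0.03 (SE 0.31, adjusted p = 0.954), with opposite directions in the experiments, 0.836-fold and 1.26-fold of 0 h, and leaving out the 24 h array of experiment 1 or 2 gave 0.49 and -0.42, neither called.

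Relb, which pairs with p52 in the non-canonical branch, differed between the experiments. Its signals were 695, 847, 1287, 1425, 1784 and 1063 in experiment 1 and 494, 593, 576, 674, 574 and 689 in experiment 2. The first course climbed to 2.57-fold of 0 h at 12 h, while the second was 1.16-fold at 12 h and highest at 24 h, at 1.39-fold. The ranges overlapped 0 h at all times, and Relb passed at none, with 0.77 (SE 0.28, adjusted p = 0.0607) at 12 h. Without both 24 h arrays the same 0.77 had an adjusted p of 0.03.

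Nfkb2 was measured by 2 probe sets that did not follow each other (r = 0.11 over the 10 log2 ratios to 0 h). Probe set 1425902_a_at, the brighter, gave 1009, 1052, 1400, 1701, 2225 and 981 in experiment 1 and 650, 744, 1228, 803, 1034 and 631 in experiment 2. The 3 h and 12 h arrays lay above both 0 h arrays, and by 24 h both experiments were back at 0.97-fold of 0 h. It rose at 12 h by 0.89 (SE 0.23, adjusted p = 0.0181), a call lost without either 0 h array or without the 12 h array of experiment 1. Probe set 1429128_x_at was highest at 1 h, at 1.71-fold and 4.32-fold of 0 h, with signals of 413 and 126 at 0 h and 707 and 546 at 1 h. Its log2 fold change of 1.37 (SE 0.35) at 1 h had an adjusted p of 1, and at 12 h it was 0.51 (SE 0.35, adjusted p = 0.308).

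**Figure D3:**
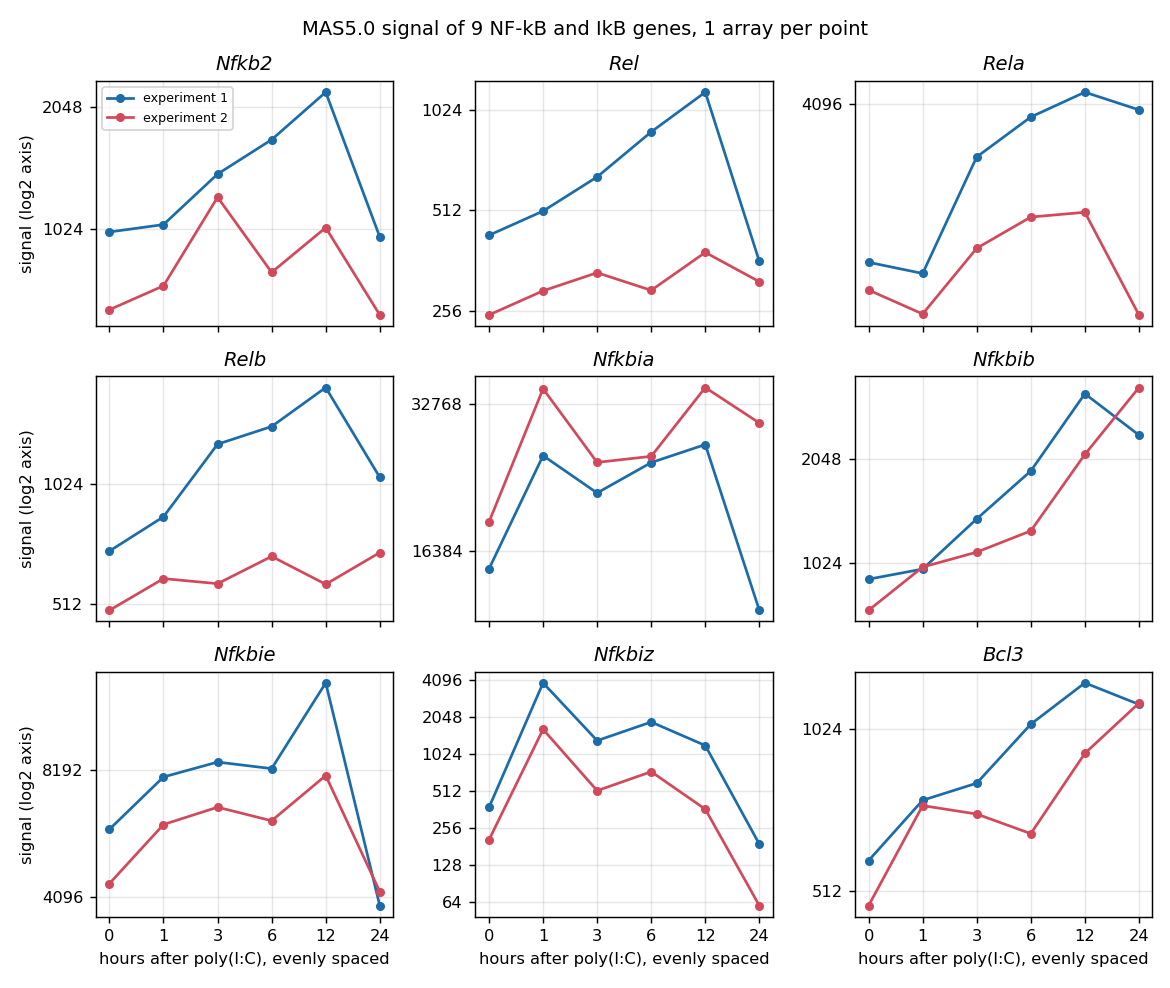
MAS5.0 signal (log2 y axis) of the representative probe set of each of 9 genes against hours after poly(I:C) (x axis, evenly spaced), 1 point per array and 1 line per experiment. Nfkbiz is highest at 1 h in both lines, 8 of the 9 genes are highest at 12 h in experiment 1, and the lines of Nfkbia part at 24 h, at 12386 and 29944.

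The IkB proteins of the cytoplasm are IkB alpha, beta and epsilon. Nfkbia encodes IkB alpha, the fast feedback inhibitor whose gene is among the best-known targets of NF-kB. Its brightest probe set, 1420088_at, gave signals of 15058, 25675, 21535, 24852, 27053 and 12386 in experiment 1. In experiment 2 it gave 18780, 35189, 24872, 25593, 35396 and 29944. From 1 to 12 h every array lay above both 0 h arrays, at 1.71-fold and 1.87-fold of 0 h at 1 h, 1.43-fold and 1.32-fold at 3 h and 1.8-fold and 1.88-fold at 12 h, and none of the steps between neighbouring times passed.

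The 5 probe sets of Nfkbia traced this course together, with pairwise r of 0.67 to 0.97 (median 0.89) over the 10 log2 ratios. At 12 h 4 of them rose, with log2 fold changes of 0.88 to 1.50, led by 1448306_at at 1.50 (SE 0.37, adjusted p = 0.0143), or 2.83-fold and 2.84-fold of 0 h in the 2 experiments. The fifth, 1438157_s_at, had 0.98 (SE 0.37, adjusted p = 0.0734). Each of the 4 calls was lost without either array of 12 h or without at least 1 of the 0 h arrays. At 1 h the 5 probe sets had log2 fold changes of 0.74 to 1.16 and none passed, with an adjusted p of 1 in each.

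At 24 h the experiments disagreed on Nfkbia. In experiment 1 all 5 probe sets were below their 0 h array, at 0.621-fold to 0.941-fold, and in experiment 2 all 5 were above it, at 1.59-fold to 2.14-fold. The fitted log2 fold changes of 0.01 to 0.50 at 24 h therefore average opposite directions, and none passed. Leaving out the 24 h array of experiment 1 gave 0.69 to 1.12 over the 5 probe sets. Leaving out that of experiment 2 gave -0.83 to -0.02, with -0.83 for 1438157_s_at and -0.61 for 1448306_at. Each of these fits rests on 1 array at 24 h, so its tests hold no spread between experiments at that time. With 1 array per experiment and time, the difference between the experiments was not tested.

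The calls at early times changed when the 24 h arrays were left out of the fit. For 1448306_at the log2 fold change at 1 h was 1.16 with all 12 arrays (SE 0.37) and 1.16 without both 24 h arrays (SE 0.11), and the adjusted p went from 1 to 0.00149. Without both 24 h arrays 4 of the 5 Nfkbia probe sets were called higher at 1 h and all 5 at 6 h, and the members called higher numbered 7 at 1 h, 6 at 3 h, 13 at 6 h and 16 at 12 h. Leaving out either 24 h array alone is no separate check on these counts, since a lone 24 h array adds nothing to the estimate of spread. The alternative without both 24 h arrays was chosen after the data were seen.

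Nfkbib encodes IkB beta, a slower inhibitor that can also keep dimers on DNA. Probe set 1421266_s_at gave 923, 987, 1376, 1890, 3154 and 2398 in experiment 1 and 751, 1000, 1104, 1271, 2109 and 3286 in experiment 2. Every array from 1 h on lay above both 0 h arrays, and the highest value came at 12 h in experiment 1 (3.42-fold of 0 h) and at 24 h in experiment 2 (4.38-fold). Nfkbib rose at 12 h by 1.61 (SE 0.25, adjusted p = 0.00113) and at 24 h by 1.73 (SE 0.25, adjusted p = 0.00082). It kept both calls in every alternative fit run, 22 at 12 h and 21 at 24 h, with the log2 fold change at 24 h between 1.34 and 2.13. Its promoter stretch above holds no kB consensus.

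Nfkbie encodes IkB epsilon, an inhibitor induced later than IkB alpha. Probe set 1458299_s_at gave 5926, 7893, 8563, 8262, 13212 and 3901 in experiment 1 and 4402, 6083, 6688, 6210, 7954 and 4214 in experiment 2. All arrays from 1 to 12 h exceeded both 0 h arrays and both 24 h arrays were below them. Nfkbie rose at 12 h by 1.00 (SE 0.19, adjusted p = 0.00325) and between 12 h and 24 h fell by 1.33 on the log2 scale (SE 0.19, adjusted p = 0.00829). The second probe set, 1431843_a_at, went with it (r = 0.95), rose by 1.07 at 12 h (adjusted p = 0.00153) and fell by 1.38 between 12 h and 24 h (adjusted p = 0.00525). Its further call at 6 h, 0.69 (SE 0.17, adjusted p = 0.0453), was lost in 14 of 22 alternative fits, among them those without any 1 array of 0 to 12 h. Both falls from 12 h to 24 h were lost without the 12 h array of experiment 1, which left 1 of the 5 member calls in that comparison, while 13 members were called lower without the 24 h array of experiment 2.

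The nuclear IkB proteins do not hold dimers in the cytoplasm. Nfkbiz encodes IkB zeta, which joins p50 on DNA and is needed for a set of secondary response genes such as Il6. Probe set 1417483_at gave 376, 3884, 1316, 1865, 1201 and 189 in experiment 1 and 205, 1626, 515, 735, 364 and 59.7 in experiment 2. The 1 h arrays stood at 10.3-fold and 7.93-fold of 0 h, the 6 h arrays stood at 4.96-fold and 3.59-fold after 3.5-fold and 2.51-fold at 3 h (6 h against 3 h had a log2 fold change of 0.50 and an adjusted p of 0.495), and both 24 h arrays were below both 0 h arrays (0.502-fold and 0.291-fold).

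Nfkbiz 1417483_at rose at 1 h by 3.10 (SE 0.22, adjusted p = 0.000939), at 3 h by 1.51 (SE 0.22, adjusted p = 0.0061), at 6 h by 2.01 (SE 0.22, adjusted p = 0.00037) and at 12 h by 1.21 (SE 0.22, adjusted p = 0.00304). At 24 h it was below 0 h, with -1.24 (SE 0.22, adjusted p = 0.00278). Between 1 h and 3 h it fell by 1.59 on the log2 scale (adjusted p = 0.0054), and between 12 h and 24 h it fell by 2.45 (adjusted p = 0.00185). Of the calls against 0 h, those at 1, 6 and 12 h were lost only where the experiment was left out of the model, and that at 3 h also without the 0 h array of experiment 1 or without either 3 h array. The call at 24 h was lost without the experiment in the model and where only the 4 arrays of 0 h and 24 h were fitted, with an adjusted p of up to 0.344. The fall from 1 h to 3 h was lost without any 1 of the 4 arrays compared.

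The other probe sets of Nfkbiz had the same course (r of 0.93 to 0.98 among the 3). At 1 h 1457404_at had 3.57 (SE 0.39, adjusted p = 0.0106), with signals of 195 and 63.7 at 0 h and 3336 and 689 at 1 h. Probe set 1448728_a_at had 2.77 (SE 0.23, adjusted p = 0.00147), with 173 and 65.8 at 0 h and 1200 and 575 at 1 h. Both passed again at 6 h and 12 h. At 12 h, though, the ranges of all 3 Nfkbiz probe sets overlapped 0 h. The 12 h call of 1457404_at, with log2 ratios of 2.17 in experiment 1 and 0.44 in experiment 2, was lost in 7 of 22 alternative fits. Probe set 1448728_a_at also passed at 3 h, with 1.28 (SE 0.23, adjusted p = 0.0235), a call lost in 10 of 22 alternative fits. Neither passed against 0 h at 24 h, where their log2 fold changes were -0.78 and -0.43. The call of 1448728_a_at at 1 h was lost without the 1 h array of experiment 1, and that of 1457404_at without any 1 of the 4 arrays of 0 h and 1 h.

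Bcl3 encodes a nuclear IkB protein that binds p50 and p52 homodimers. Its signals were 583, 754, 811, 1043, 1244 and 1135 in experiment 1 and 481, 737, 711, 654, 921 and 1141 in experiment 2. Every later array lay above both 0 h arrays, and at 24 h the experiments stood at 1.95-fold and 2.37-fold. Bcl3 rose at 12 h by 0.99 (SE 0.21, adjusted p = 0.00598) and at 24 h by 1.08 (SE 0.21, adjusted p = 0.00409). The first call was lost without the 12 h array of experiment 1 (adjusted p = 0.0533), and the second where only the 4 arrays of 0 h and 24 h were fitted (adjusted p = 0.0768).

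Bcl3 and Nfkbib were the only members called higher at 24 h, and Nfkbiz 1417483_at was the only one called lower.

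**Figure D4:**
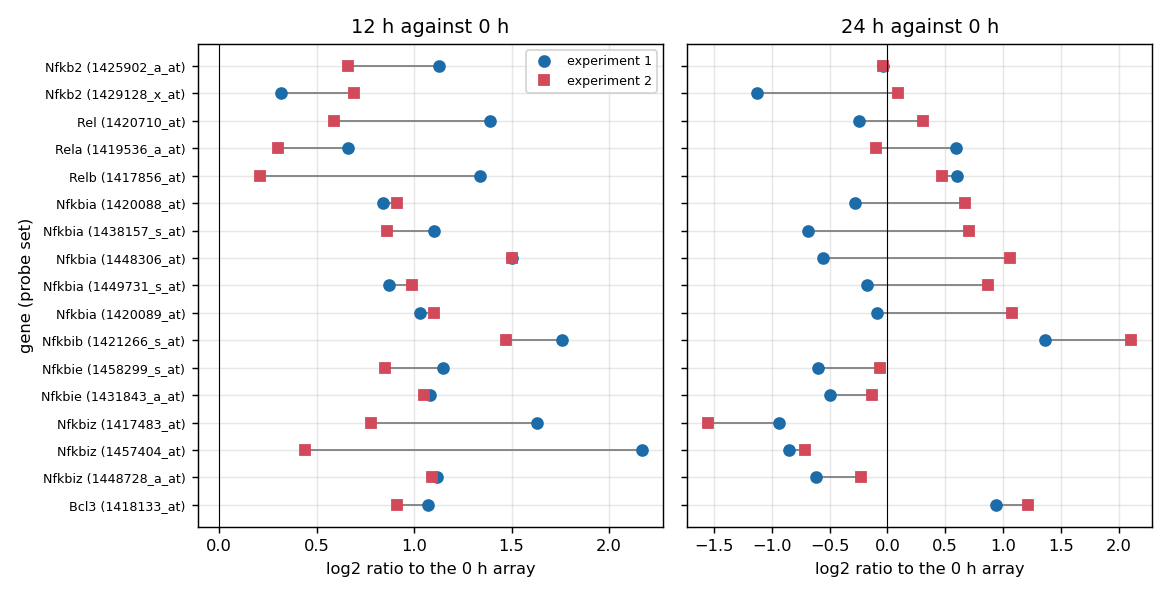
Log2 ratio of each array to its own experiment's 0 h array (x axis) for the 17 tested member probe sets (y axis) at 12 h (left) and 24 h (right), experiment 1 as circles and experiment 2 as squares. At 12 h all points are above 0, and at 24 h the circles of all 5 Nfkbia probe sets are below 0 and their squares above it.

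The timing of the maxima also differed between the experiments. By representative probe set, 8 of 9 genes were highest at 12 h in experiment 1 and the ninth, Nfkbiz, at 1 h. In experiment 2, 4 genes were highest at 12 h, 3 at 24 h (Relb, Nfkbib and Bcl3), 1 at 3 h (Nfkb2) and 1 at 1 h (Nfkbiz). At 12 h the ratio to 0 h was larger in experiment 1 for 8 of 9 genes, with a median log2 ratio of 1.15 against 0.78 in experiment 2, while 51% of all tested probe sets had the larger ratio in experiment 1. At 24 h it was larger in experiment 1 for 4 genes, one of them Nfkb2 by a margin of 0.973-fold against 0.971-fold, and in experiment 2 for 5, with medians of -0.04 and 0.31, while 54.2% of all tested probe sets had the larger ratio in experiment 1. With 1 array per experiment and time these differences were not tested.

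Other genes of the pathway were counted from a list of 60 regulators, of which 52 were tested. They include the sensors and adaptors, the kinases and ubiquitin ligases that lead to IKK, and the inhibitors. Of these 52, 18 rose and 6 fell at 12 h (median log2 fold change 0.36), and 11 rose and 5 fell at 24 h (median 0.25). Of all probe sets tested, 9.32% were called higher and 18.7% lower at 12 h, and 9.23% and 17.5% at 24 h. At 1, 3 and 6 h 1, 2 and 10 rose and 0 fell, beside 0.0533%, 1.01% and 3.62% of all called higher and 0%, 0.0444% and 1.95% lower. The IKK subunits Ikbkb and Ikbkg, named after their values were seen, had -0.05 and -0.12 at 12 h (adjusted p = 0.913 and 0.661). These average opposite directions. From 0 h to 12 h Ikbkb went from 1896 to 2424 in experiment 1 and from 1951 to 1417 in experiment 2. Ikbkg went from 1375 to 1508 and from 1424 to 1095.

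The regulators with the smallest p at 12 h began with the sensors that meet poly(I:C). Ifih1, the cytosolic sensor MDA5, rose by 5.18 and Ddx58, the sensor RIG-I, by 4.08 (adjusted p = 2.28e-07 for each). Tlr3, the endosomal receptor of double-stranded RNA, rose by 3.70 (adjusted p = 0.000184). Rnf31, which encodes the catalytic subunit of the linear ubiquitin ligase, rose by 1.94 (adjusted p = 8.09e-05) and Irak2, a kinase of the MYD88 complex, by 1.68 (adjusted p = 0.000193). Tnfaip3, which encodes the inhibitor A20, rose by 1.35 (adjusted p = 0.000234). It was the regulator called at 1 h, with 1.26. Nfkbid, a nuclear IkB protein outside the member list that was named after its values were seen, had a log2 fold change of -0.92 at 12 h (adjusted p = 0.0977) and fell by 1.81 at 24 h.

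Known target genes of NF-kB, 36 tested of 38 listed, include cytokines, chemokines, co-stimulatory molecules and survival factors. At 1, 3, 6 and 12 h 6, 9, 18 and 26 of them rose and 0 fell, with a median of 1.43 at 12 h, and at 24 h 14 rose and 7 fell (median 0.78). From 12 h to 24 h 0 rose and 14 fell, beside 1.87% and 2.25% of all probe sets tested. Against 0 h, the shares of all called higher were 0.0533%, 1.01%, 3.62%, 9.32% and 9.23% at 1, 3, 6, 12 and 24 h. Those called lower were 0%, 0.0444%, 1.95%, 18.7% and 17.5%. The targets with the smallest p at 12 h were the chemokine Cxcl10 at 8.41 (adjusted p = 8.05e-07), the cytokine Il6 at 6.04 (adjusted p = 5.14e-06), the chemokine Ccl5 at 5.21 (adjusted p = 6.24e-06) and Cflar, an inhibitor of caspase-8, at 2.53 (adjusted p = 6.37e-06). Between 12 h and 24 h Il6 fell by 3.08 on the log2 scale and remained above 0 h, at 2.96. Its 0 h signals were 49.9 and 5.23 in experiments 1 and 2, the second below the 16 added before the log. The size of its changes from 0 h therefore depends on that added value. Its 12 h signals were 6798 and 878.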

How the data were processed

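RNA of 12 BMDC cultures (6 times, 2 experiments) was hybridized to Affymetrix whole-genome mouse arrays. The authors processed the arrays with MAS5.0, and the deposited intensity values are linear signals scaled per array, 1 per probe set (45101). Precision is set by having 2 arrays per time. That these come from separate mice is stated only in the study's methods.

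The 64 control probe sets were left out, and 22519 probe sets with a mean signal of at least 78.4, the median, were tested. Values were analysed as log2(intensity + 16) with limma 3.58.1 in R 4.3.3, with time and experiment as terms (5 residual degrees of freedom), an intensity trend in eBayes and Benjamini-Hochberg adjustment at 0.05. Experiment was a block because the study's methods describe the experiments as run apart. As a check, each array was set against the average of its time, and the residuals of arrays sharing an experiment had correlations of 0.26 to 0.66 (median 0.57, 15 pairs of times).

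All member probe sets are described, and the one with the highest mean signal stands for its gene. Of the pathway and target lists, the 6 and 4 genes with the smallest p at 12 h are named. Members, lists and tests were chosen with earlier results of these data known. For each member, 3 genes with the highest correlation over 10 log2 ratios are named. On data simulated for 12 h against 0 h over 22519 probe sets, the fit recovered 71.7% of 4-fold and 19.3% of 2-fold changes, and 5.86% of its calls were false. That simulation changed far fewer probe sets than limma called at 12 h in the data (2098 higher and 4205 lower). The recovery in the data was therefore not measured. Alternatives were the pseudocount, the filter, the scaling, the block, the trend, the arrays in the fit and leaving out each array, and, added after seeing the data, leaving out both 24 h arrays. Promoter windows and gene positions are RefSeq's on GRCm38.p6.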

Additional observations from a re-analysis of the deposited data

How the results depend on the processing

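The limits are few arrays and 1 array per experiment and time. Counts of members called kept within 1.5 times of those reported under both other pseudocounts, the stricter filter, median centring, quantile normalization and no intensity trend, and with no filter except at 3 h, where 1 was called. Without the replicate block, 0 were called at 1, 3 and 6 h, 3 at 12 h, 0 at 3 h against 1 h and 0 at 24 h against 12 h, and 2 at 24 h against 0 h, where 3 were reported. Fitting only the 4 arrays of the times compared gave 9 at 1 h, 13 at 3 h, 12 at 6 h and 1 at 24 h against 0 h, 10 at 3 h against 1 h, 3 at 6 h against 3 h and 4 at 12 h against 6 h. Without both 24 h arrays the counts were 7, 6 and 13 at 1, 3 and 6 h, 4 at 3 h against 1 h and 5 at 12 h against 6 h. The cause of these changes was not tested. Leaving out 1 array at a time gave 1 to 7 calls at 1 h, 0 to 6 at 3 h, 1 to 13 at 6 h, 5 to 16 at 12 h and 3 to 8 at 24 h against 0 h. It gave 0 to 4 at 3 h against 1 h, 0 to 0 at 6 h against 3 h, 0 to 5 at 12 h against 6 h and 1 to 13 at 24 h against 12 h. At 24 h, Nfkbia 1438157_s_at and 1448306_at had log2 fold changes of -0.83 and -0.61 without the array of experiment 2. Without that of experiment 1 they had 0.85 and 1.12.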

Other observations

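Among the members, courses were compared over the 10 log2 ratios of each array to its own experiment's 0 h array (5 times in each of 2 experiments, the 5 ratios of an experiment sharing their 0 h array), as a description. Bcl3 and Nfkbib, both called higher at 24 h, had r = 0.96. Rel and Nfkb2 had r = 0.83 for Nfkb2 probe set 1425902_a_at, which the other Nfkb2 probe set did not follow (r = 0.11). Nfkbib and Nfkbiz had r = -0.78, although both representative probe sets had ratios above 0 in both experiments from 1 to 12 h and parted in sign at 24 h.

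The 3 genes outside the family whose courses were most like that of each member, over the same 10 ratios, were as follows. For Rela they were Samhd1 (r = 0.978), Unc50 and H2aw, and for Rel they were Fpr2 (r = 0.961), Stat5a and Tspan33. For Relb they were Nudt17 (r = 0.945), Ttyh2 and Itgb8, and for Nfkb2 (probe set 1425902_a_at only) Atl3 (r = 0.899), Myo10 and Col4a2. Nfkbia was most like Uqcrfs1 (r = 0.910), Trim36 and Gm6958, Nfkbib most like Ift172 (r = 0.980), Rab10 and Insl6, and Nfkbie most like St3gal5 (r = 0.982), Khdrbs1 and Atm. Nfkbiz was most like Gspt1 (r = 0.981), Cass4 and Nfya, and Bcl3 most like Ppp2r1a (r = 0.968), Iffo2 and Usp15. These were the highest r among all tested probe sets naming 1 gene outside the family, so a high r came with the choice. A relation between the genes was not tested. A high r also did not mean a like size of change. Gspt1 had log2 ratios of 0.11 and 0.10 at 1 h in the 2 experiments, where Nfkbiz had its maximum, and -1.52 and -1.75 at 24 h.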
